A study of Danio rerio with 3 samples.

Results

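Neutrophils of zebrafish embryos, sorted by the mpx:EGFP reporter, were compared gene by gene with the cells of the same embryos that carried no reporter signal. The comparison covers 12060 of the 14428 genes in the deposited table, namely those whose FPKM reached 1 in either of these 2 libraries. FPKM counts fragments relative to transcript length and to the number of fragments in the library. The EGFP+ group is 1 library of cells positive for EGFP alone, and the double-negative group is 1 library of cells with neither EGFP nor mCherry. Both came from about 1000 untreated embryos at 72 hours post fertilization with an otherwise wild-type genotype, all of which carried the mpeg1:mCherry and mpx:EGFP transgenes, in which the promoters of a macrophage and a neutrophil gene drive the reporters. A further library of mCherry+ cells from these embryos is given beside some genes for context. Over 50000 cells were collected for each population by flow cytometry. The embryos were pooled and each population gave 1 library, so there is no replicate error, and no test, p-value or interval could be given. The double-negative library is a mixture of all other tissues of the embryo, and in such bulk samples fewer cells of a type and less RNA per cell cannot be told apart.

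Neutrophils are short-lived granulocytes that leave the blood, crawl towards injury or infection and kill microbes. They do so with enzymes stored in granules, with oxidants made by the phagocyte NADPH oxidase, and by engulfing particles. Movement depends on chemoattractant receptors coupled to G proteins, on the small GTPase Rac2 and on branched actin filaments made by the Arp2/3 complex. In zebrafish larvae the cells are recognized by myeloperoxidase and lysozyme, and the study from which the libraries come concerned the matrix metalloproteinases mmp2 and mmp9 in blood stem cell development.

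Differences are given as the log2 ratio of FPKM + 1, EGFP+ over double negative, on which a value of 2 is a 4-fold difference. Adding 1 understates the difference of genes with low values, and every statement that a gene was past or within a fold uses this scale. Of the 12060 genes, 1048 (8.69%) rose past 4-fold in the EGFP+ library and 661 (5.48%) fell past 4-fold. These 2 percentages are the background against which each gene group below is read. The median ratio was -0.05, with an SD across genes of 1.58, and 6379 genes (52.9%) lay within 2-fold. The FPKM sums were 696949 in EGFP+, 571639 in mCherry+ and 356886 in double-negative cells, and the depth in reads is unknown. For the 5841 genes that reached 5 FPKM in each library, the ratio without the added 1 was centred at 0.40. With that shift removed the counts were 757 higher and 1024 lower, so the higher genes made up 42.5% of those past 4-fold and not 61.3%. With a housekeeping list as the scale they made up 27.4% (575 and 1524 genes), and with equal FPKM sums 22.5% (514 and 1766 genes). The 49 genes behind the housekeeping scale were themselves uneven, with ratios without the added 1 from -3.24 to 3.08 (SD 1.03). Values below are as deposited. At the largest of these shifts, 514 of the 1048 genes were still past 4-fold, and a gene named here with a ratio between 2 and 3 can fall short of it.

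On the deposited values with 1 added, the difference was uneven between the directions. Among the higher genes 486 were past 8-fold, 159 past 32-fold and 58 past 128-fold, whereas among the lower genes the numbers were 123, 3 and 1. The added 1 limits the ratio that a gene can reach when its larger value is low. At 4-fold the balance turned with 0.1 added instead (1307 higher and 1617 lower) and with equal FPKM sums (514 and 1766). The counts past 8-fold were not recomputed under these settings. The median higher gene stood at 63.6 FPKM in EGFP+ and 5.31 in double-negative cells, and the median lower gene at 1.58 FPKM in EGFP+ and 13.8 in double-negative cells. With small RNA genes left out, the higher genes held 34.9% of the FPKM sum in EGFP+ and 4.78% in double-negative cells. The lower genes held 0.567% of it in EGFP+ and 8.48% in double-negative cells. The 10 highest genes other than small RNAs held 11.3% of the sum in EGFP+ and 7.03% in double-negative cells. Of the higher genes 57 were listed at 0 in double-negative cells, and of the lower genes 107 were listed at 0 in EGFP+ cells. No fold is given against such a value, because an exact 0 can be a failed estimate. The cyclophilin gene ppiaa, a housekeeping gene, was listed at 0 in EGFP+ and in mCherry+ cells and had 6.18 FPKM in double-negative cells. At the edges of the threshold, csk was just inside at 28.8 FPKM in EGFP+ cells and 6.44 in double-negative cells (ratio 2.00) and mul1b just outside at 8.82 FPKM in EGFP+ cells and 1.46 in double-negative cells, while on the lower side cyp2p10 was just inside at 0.457 FPKM in EGFP+ cells and 4.83 in double-negative cells and vax1 just outside at 0.268 FPKM in EGFP+ cells and 4.06 in double-negative cells.

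**Figure D1:**
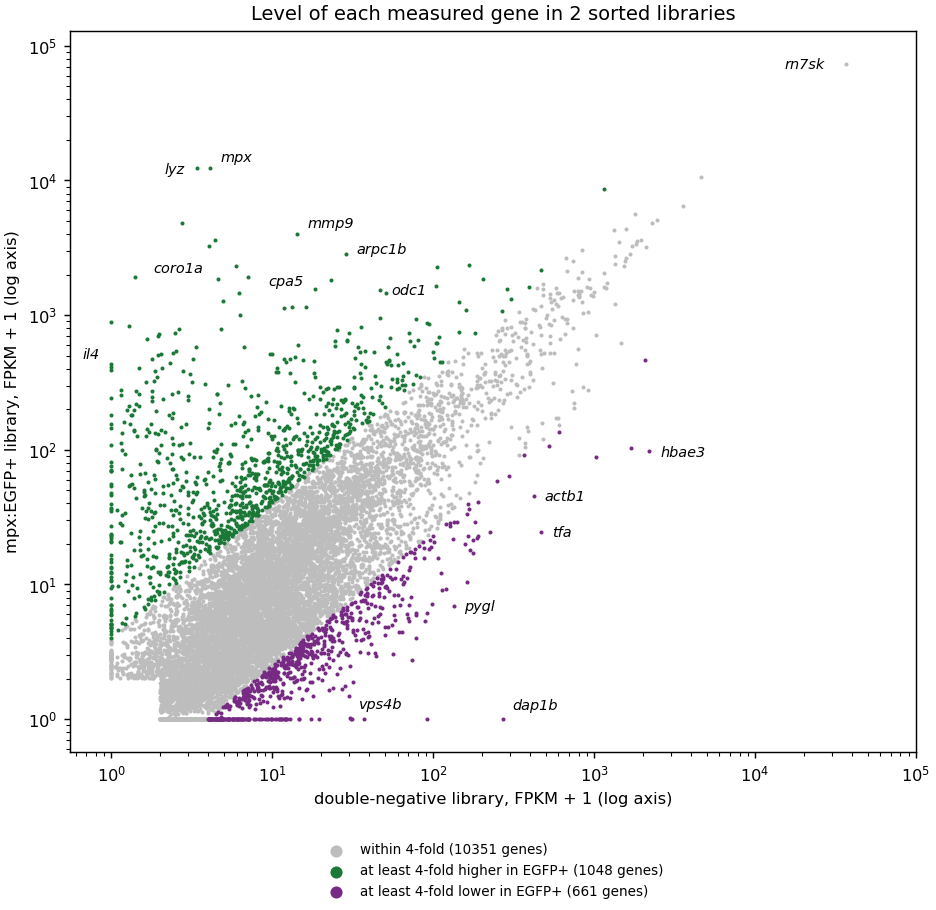
Level of each of the 12060 measured genes in the mpx:EGFP+ library (vertical) against the double-negative library (horizontal), as FPKM + 1 on log axes, with 1 point per gene. Green points are the 1048 genes at least 4-fold higher and purple points the 661 genes at least 4-fold lower in EGFP+. On this scale, with deposited values and 1 added, the green points spread much farther from the grey band than the purple ones. Points on the lower and left edges are listed at or near 0.

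Markers of the sorted cells were read first. Because the cells were sorted on the mpx promoter, a high mpx value follows from the sort and is no independent check. The marker lists were chosen with earlier results of these data known, so their counts are a description only. The reporter's own gene, mpx (myeloperoxidase), had 12480.0 FPKM in EGFP+, 55.8 in mCherry+ and 3.102 in double-negative cells, and lyz (lysozyme) had 12339.8, 40.2 and 2.41 in the same order. They were the 2 highest genes of the EGFP+ library other than small RNAs. Of the neutrophil marker list, 20 of 23 measured members rose past 4-fold, 1 fell past it, and the median log2 ratio was 8.01. Its members summed to 51620.2 FPKM in EGFP+, 3791 in mCherry+ and 171 in double-negative cells, which is 8.43% of all FPKM outside small RNAs in EGFP+ and 0.0542% in double-negative cells. Of the 8 defining markers, 7 were in the table, and each of these was highest in EGFP+; cxcr1 was not analysed here.

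Granule contents led the list. The astacin-family protease nephrosin (npsn) had 3644 FPKM in EGFP+ cells and 3.42 in double-negative cells, the collagenase mmp13a had 3288 FPKM in EGFP+ cells and 3.02 in double-negative cells, and the gelatinase mmp9 had 4036 FPKM in EGFP+ cells and 13.2 in double-negative cells. In mCherry+ cells the same genes stood at 40.2, 25.96 and 19.9 FPKM, far nearer to the double-negative cells. The granule proteoglycan serglycin (srgn) had 1264 FPKM in EGFP+ cells and 3.91 in double-negative cells. The secreted calcium-binding phosphoprotein gene scpp8 had 2313 FPKM in EGFP+ cells and 4.94 in double-negative cells, and lect2l, related to a leukocyte chemotactic factor, had 1928 FPKM in EGFP+ cells and 6.04 in double-negative cells. Some markers were also high in mCherry+. The Fc receptor gamma-chain-like adaptor fcer1gl had 4832 FPKM in EGFP+ cells and 1.73 in double-negative cells, with 2011 in mCherry+, and the granulocyte colony-stimulating factor receptor csf3r had 659 FPKM in EGFP+ cells and 0.67 in double-negative cells, with 365 in mCherry+. The peptidoglycan recognition gene pglyrp5 rose past 4-fold (85.0 FPKM in EGFP+ and 8.33 in double-negative cells) and was highest in mCherry+, at 199. The members that did not rise past 4-fold were its relative pglyrp6 (34.7 FPKM in EGFP+ and 23.7 in double-negative cells), with 86.6 in mCherry+, the arginase gene arg2 (70.1 FPKM in EGFP+ and 20.9 in double-negative cells), and the intelectin gene itln3, listed at 0 in EGFP+ and at 11.04 FPKM in double-negative cells.

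**Figure D2:**
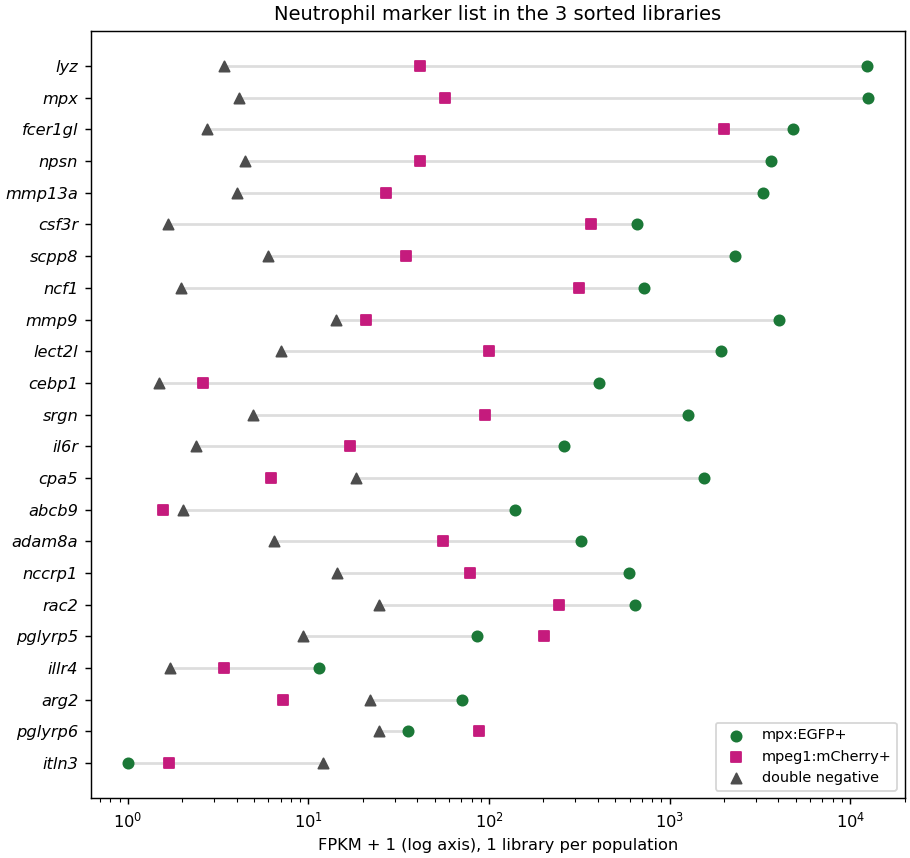
Level of the 23 neutrophil markers in the 3 libraries, as FPKM + 1 on a log axis, ordered by the ratio of EGFP+ (green circles) over double-negative cells (grey triangles), with mCherry+ as pink squares and grey lines joining EGFP+ and double-negative values. In 20 of the 23 rows the EGFP+ value was at least 4-fold above the double-negative one; pglyrp5 and pglyrp6 were highest in mCherry+, and itln3 was highest in double-negative cells.

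Not all proteases moved with these. In a wider list of granule proteases, inhibitors and matrix proteases, 19 of 51 measured members rose past 4-fold, 4 fell past it, and the median log2 ratio was 1.16. That median was 0.42 with housekeeping scaling and 0.25 with equal sums. In mCherry+ over double-negative cells 27 of the 51 rose past 4-fold, with a median of 2.15. The list as a whole was thus not particular to EGFP+. The gelatinase mmp2 had 16.1 FPKM in EGFP+ cells and 74.5 in double-negative cells (ratio -2.14), opposite in direction to mmp9 (ratio 8.15). The membrane-type metalloproteinase mmp14b, which can activate gelatinases, stood at 3.74 FPKM in EGFP+ and 15.7 in double-negative cells, within 4-fold. The metalloproteinase inhibitor timp2b was among the higher genes at 645 FPKM in EGFP+ cells and 28.3 in double-negative cells, with 181 in mCherry+. The cathepsin genes differed in which reporter population held them: ctssa had 325 FPKM in EGFP+, 0.98 in mCherry+ and 0.842 in double-negative cells, whereas ctsc, which activates granule serine proteases in mammals, had 79.4, 660.2 and 4.35 in that order. The lowest members were the lipocalin gene lcn15 at 0.672 FPKM in EGFP+ cells and 26.1 in double-negative cells and the metalloproteinase gene mmp23bb at 0.912 FPKM in EGFP+ cells and 12.99 in double-negative cells.

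Transcription factors of the myeloid lineage were split between a few large differences and many small ones. Of 81 measured members 23 rose and 0 fell past 4-fold, with a median ratio of 0.67 that turned to -0.04 with housekeeping scaling and -0.20 with equal sums. For mCherry+ over double-negative cells 22 of the 81 rose past 4-fold, with a median of 0.41. The list as a whole was thus not particular to EGFP+. The C/EBP factor cebp1 had 406 FPKM in EGFP+, 1.59 in mCherry+ and 0.488 in double-negative cells, so it was near the floor in both other populations. The PU.1 genes, which drive myeloid fate, were high in both reporter populations: spi1b had 391 FPKM in EGFP+ and 192 in mCherry+ and was listed at 0 in double-negative cells, and spi1a had 188, 313 and 1.43. Other members with a high ratio were ikzf1 (Ikaros) at 45.3 FPKM in EGFP+ cells and 0.627 in double-negative cells, the ETS factor fli1b at 53.7 FPKM in EGFP+ cells and 1.26 in double-negative cells, runx3 at 34.7 FPKM in EGFP+ cells and 1.33 in double-negative cells and the interferon regulatory factor irf7 at 66.99 FPKM in EGFP+ cells and 1.91 in double-negative cells. The macrophage-associated factors irf8 and mafbb were not among them: irf8 had 0.565 FPKM in EGFP+, 105 in mCherry+ and 1.44 in double-negative cells, and mafbb had 4.17, 318 and 2.38. At the low end stood the homeobox cofactors meis1 (13.5 FPKM in EGFP+ and 52.8 in double-negative cells) and pbx1a (8.71 FPKM in EGFP+ and 33.1 in double-negative cells) and the immediate-early gene egr2a (11.9 FPKM in EGFP+ and 44.2 in double-negative cells), all within 4-fold.

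The C/EBP family itself was uneven. Besides cebp1, the granulopoietic factor cebpa had 98.98 FPKM in EGFP+ cells and 13.5 in double-negative cells and cebpb had 203 FPKM in EGFP+ cells and 23.9 in double-negative cells, and these also stood at 138 and 123 FPKM in mCherry+ cells. By contrast cebpg was at 52.9 FPKM in EGFP+ and 32.9 in double-negative cells and cebpd at 15.5 FPKM in EGFP+ and 54.7 in double-negative cells, both within 4-fold.

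Receptors that guide or maintain leukocytes were read next. Of the chemoattractant and growth factor receptors, 15 of 47 measured members rose past 4-fold, 1 fell past it, and the median log2 ratio was 1.15. That median was 0.60 with housekeeping scaling and 0.43 with equal sums. In mCherry+ over double-negative cells 19 of the 47 rose past 4-fold, with a median of 1.27, so the list as a whole was not particular to EGFP+. After csf3r, the highest were gpr84, a receptor for medium-chain fatty acids, at 574 FPKM in EGFP+ cells and 2.37 in double-negative cells, the chemokine receptor ccr9a at 382 FPKM in EGFP+ cells and 1.78 in double-negative cells, the interleukin-6 receptor il6r at 258 FPKM in EGFP+ cells and 1.38 in double-negative cells, and gpr183, a receptor for oxysterols, at 125 FPKM in EGFP+ cells and 0.642 in double-negative cells. In mCherry+ cells gpr84 stood at 467 FPKM, ccr9a at 68.6, il6r at 16.0 and gpr183 at 24.3. The stromal-factor receptor cxcr4b, which retains neutrophils in haematopoietic tissue, had 224 FPKM in EGFP+ cells and 8.13 in double-negative cells, while its paralog cxcr4a was at 1.24 FPKM in EGFP+ and 2.13 in double-negative cells. The sphingosine-phosphate receptors went separate ways: s1pr4 had 99.1 FPKM in EGFP+ cells and 0.901 in double-negative cells, s1pr1 had 6.93 FPKM in EGFP+ cells and 24.9 in double-negative cells (within 4-fold), and s1pr3 had 0.262 FPKM in EGFP+ cells and 5.19 in double-negative cells. The lower end also held the interleukin-4 receptor il4r (18.5 FPKM in EGFP+ and 38.6 in double-negative cells), il13ra1 (4.502 FPKM in EGFP+ and 14.8 in double-negative cells) and the stem cell factor receptor kita (1.18 FPKM in EGFP+ and 5.303 in double-negative cells), all within 4-fold.

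Signalling behind these receptors was higher at particular nodes. In the list of G protein and PI3K signalling, 18 of 53 measured members rose past 4-fold, 3 fell past it, and the median log2 ratio was 0.81. That median was 0.17 with housekeeping scaling and 0.07 with equal sums. For mCherry+ over double-negative cells 15 of the 53 rose past 4-fold, with a median of 0.75. The list as a whole was thus not particular to EGFP+. The regulators of G protein signalling rgs13 (268 FPKM in EGFP+ cells and 1.597 in double-negative cells), rgs2 (576 FPKM in EGFP+ cells and 5.63 in double-negative cells) and rgs18 (77.7 FPKM in EGFP+ cells and 0.499 in double-negative cells) were the highest of the members detected in both libraries, and rgs14a had 69.04 FPKM in EGFP+ and was listed at 0 in double-negative cells. The leukocyte PI3-kinase subunits pik3cg, at 121 FPKM in EGFP+ cells and 1.36 in double-negative cells, and pik3cd, at 34.3 FPKM in EGFP+ cells and 0.76 in double-negative cells, were both past 4-fold. The kinase prkcda (protein kinase C delta) separated EGFP+ from both other libraries, with 486 FPKM in EGFP+, 3.94 in mCherry+ and 12.8 in double-negative cells. Among the alpha subunits gnai2a had 186 FPKM in EGFP+ cells and 35.9 in double-negative cells and gnai1 65.95 FPKM in EGFP+ cells and 11.4 in double-negative cells, whereas gnai3 had 1.39 FPKM in EGFP+ cells and 6.76 in double-negative cells (within 4-fold) and gnaq had 1.13 FPKM in EGFP+ cells and 9.51 in double-negative cells. The regulator rgs8 was listed at 0 in EGFP+ and at 8.84 FPKM in double-negative cells.

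Tyrosine kinases, phosphatases and adaptors had a median of 1.91, with 24 of 49 measured members rising and 2 falling past 4-fold. That median was 1.25 with housekeeping scaling and 1.08 with equal sums. In mCherry+ over double-negative cells 22 of the 49 rose past 4-fold, with a median of 1.72. The list as a whole was thus not particular to EGFP+. The Src-like adaptor sla1 had 517 FPKM in EGFP+ cells and 1.03 in double-negative cells. The phosphatase ptpn6 (SHP-1) had 347 FPKM in EGFP+ cells and 0.916 in double-negative cells, and the adaptor grap2a had 125 FPKM in EGFP+ cells and 0.438 in double-negative cells. Its paralog grap2b also rose past 4-fold, with 468 FPKM in EGFP+ and 223 in mCherry+. The kinases syk (83.8 FPKM in EGFP+ and 1.797 in double-negative cells), lyn (71.2 FPKM in EGFP+ and 1.41 in double-negative cells) and tec (71.3 FPKM in EGFP+ and 1.39 in double-negative cells) had similar levels to one another and ratios of 4.92, 4.91 and 4.92. The Fc receptor gamma chain fcer1g had 107 FPKM in EGFP+ and 203 in mCherry+ and was listed at 0 in double-negative cells. The widely expressed Src-family genes stood lower: fyna had 4.31 FPKM in EGFP+ cells and 21.6 in double-negative cells and yes1, within 4-fold, had 7.32 FPKM in EGFP+ cells and 22.4 in double-negative cells. The p38 kinases, which were in no list and were chosen after their values were seen, did not all go the same way. Of 5 measured genes mapk12b had 274 FPKM in EGFP+ cells and 0.795 in double-negative cells and mapk11 182 FPKM in EGFP+ cells and 7.28 in double-negative cells. Just within 4-fold on the higher side were mapk14a (ratio 1.98) and mapk14b (ratio 1.97), and mapk12a was within 4-fold on the lower side (ratio -1.84).

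Among small GTPases that act on actin, Rac2, the Rac form of blood cells, had 639 FPKM in EGFP+ cells and 23.5 in double-negative cells (ratio 4.71). The other Rac genes were below the double-negative level: rac1 had 11.3 FPKM in EGFP+ cells and 33.5 in double-negative cells (within 4-fold), rac3b 5.78 FPKM in EGFP+ cells and 32.6 in double-negative cells and rac3a 1.98 FPKM in EGFP+ cells and 17.3 in double-negative cells. The 4 Rac genes summed to 658 FPKM in EGFP+ and 107 in double-negative cells. The filopodia-associated GTPase rhof had 100.3 FPKM in EGFP+, 3.97 in mCherry+ and 0.882 in double-negative cells. The GTPase rhogb had 112 FPKM in EGFP+ cells and 2.08 in double-negative cells, with 118 in mCherry+, and the inhibitor of GDP dissociation arhgdig had 813 FPKM in EGFP+ cells and 34.8 in double-negative cells.

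Genes that build and turn over actin filaments were among the most abundant of the higher genes. Of the actin list, 37 of 89 measured members rose past 4-fold, 4 fell past it, and the median log2 ratio was 0.86, with all 3 scalings leaving that median above 0 (0.04 at the lowest). The highest ratios belonged to haematopoietic forms: gmfg, which debranches Arp2/3 networks, had 414 FPKM in EGFP+ and was listed at 0 in double-negative cells; the coronin coro1a had 1866 FPKM in EGFP+ cells and 3.597 in double-negative cells; the plastin lcp1 had 733 FPKM in EGFP+ cells and 1.48 in double-negative cells; and the Wiskott-Aldrich gene wasb had 504 FPKM in EGFP+ cells and 0.945 in double-negative cells. The partner of that protein, wipf1a (listed in the table as zgc:172057), had 145 FPKM in EGFP+ and 2.57 in mCherry+ and was listed at 0 in double-negative cells. The mCherry+ values of gmfg, coro1a, lcp1 and wasb were 104, 562, 239 and 117 FPKM. For mCherry+ over double-negative cells 22 of the 89 rose past 4-fold, with a median of 0.64. Thymosin beta 4 (tmsb4x, listed as zgc:195154), which sequesters actin monomers, had 8672 FPKM in EGFP+ cells and 1154 in double-negative cells and was the fifth highest gene of the EGFP+ library.

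Subunits of the Arp2/3 complex rose together. Of 14 measured genes for its subunits and their paralogs, a set put together after the values were seen, 10 rose and 0 fell past 4-fold. The largest was arpc1b at 2826 FPKM in EGFP+ cells and 27.6 in double-negative cells, with 880.0 in mCherry+. The others that rose ran from 209.9 FPKM (actr2b) to 583 FPKM (arpc3) in EGFP+, against 10.4 (actr2b) to 99.3 FPKM (arpc2) in double-negative cells. The exceptions were the paralogs arpc1a (79.9 FPKM in EGFP+ and 143 in double-negative cells), arpc5la (2.14 FPKM in EGFP+ and 7.42 in double-negative cells), arpc5lb (4.28 FPKM in EGFP+ and 6.57 in double-negative cells) and actr3b (1.39 FPKM in EGFP+ and 0.487 in double-negative cells), all within 4-fold. The Arp2/3 genes summed to 6489 FPKM in EGFP+, 2208 in mCherry+ and 567 in double-negative cells.

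Actin itself went the other way. The cytoplasmic beta-actin gene actb1 had 44.6 FPKM in EGFP+, 483 in mCherry+ and 420.4 in double-negative cells (ratio -3.21), and actb2 had 158, 1056 and 470.4 (ratio -1.57, within 4-fold). Both stayed below the double-negative level under each scaling, since every scaling tried lowers the EGFP+ values further. Their coding sequences are near-identical, and how reads shared between them were assigned is not given in the sources used here, so the split between the pair is uncertain. The muscle and cardiac actins were mixed: acta1a, acta2 and actc1a were at least 4-fold lower, and acta1b (211 FPKM in EGFP+ and 177 in double-negative cells) and actc1b (355 FPKM in EGFP+ and 256 in double-negative cells) were within 4-fold. Also at the low end of the list were tmsb, at 5.07 FPKM in EGFP+ cells and 45.8 in double-negative cells, the profilin gene pfn2l, at 40.1 FPKM in EGFP+ cells and 188 in double-negative cells, and marcksb, at 35.6 FPKM in EGFP+ cells and 166 in double-negative cells. The cofilin-like gene cfl2l and the gelsolin-family gene scinlb, in no list and chosen after their values were seen, had 1098 and 1138 FPKM in EGFP+ against 158 and 10.8 in double-negative cells.

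Adhesion genes had no common direction. In the integrin and adhesion list, 11 of 45 measured members rose past 4-fold, 2 fell past it, and the median log2 ratio was -0.31; the median was 0.16 when genes under an FPKM of 10 were left out. The genes that rose include those that link leukocyte integrins to actin: parvg (parvin gamma) had 406 FPKM in EGFP+ cells and 1.05 in double-negative cells, fermt3b (kindlin-3) 138 FPKM in EGFP+ cells and 0.373 in double-negative cells, tln1 (talin) 234 FPKM in EGFP+ cells and 26.7 in double-negative cells and the Rap1 effector apbb1ip 58.6 FPKM in EGFP+ cells and 3.86 in double-negative cells. Their counterparts of other tissues did not: parvaa had 5.43 FPKM in EGFP+ cells and 21.2 in double-negative cells and fermt2 4.96 FPKM in EGFP+ cells and 13.5 in double-negative cells, both within 4-fold. The mCherry+ values of parvg, fermt3b and apbb1ip were 189, 134 and 22.7 FPKM. The selectin ligand selplg had 307 FPKM in EGFP+ cells and 2.81 in double-negative cells. Enzymes that modify selectin ligands, a set chosen after the values were seen, gave 7 of 10 measured genes at least 4-fold higher with selplg counted: the fucosyltransferase fut7 had 196 FPKM in EGFP+ cells and 0.372 in double-negative cells, the tyrosine sulphotransferase tpst1 216 FPKM in EGFP+ cells and 24.1 in double-negative cells, and the sialyltransferase st3gal3a 146 FPKM in EGFP+ cells and 16.2 in double-negative cells. In mCherry+ cells fut7 stood at 157 and tpst1 at 15.9 FPKM. The tetraspanin cd9a (4.23 FPKM in EGFP+ cells and 26.1 in double-negative cells) and cd99l2 (19.5 FPKM in EGFP+ cells and 100.5 in double-negative cells) were the members at least 4-fold lower.

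**Figure D3:**
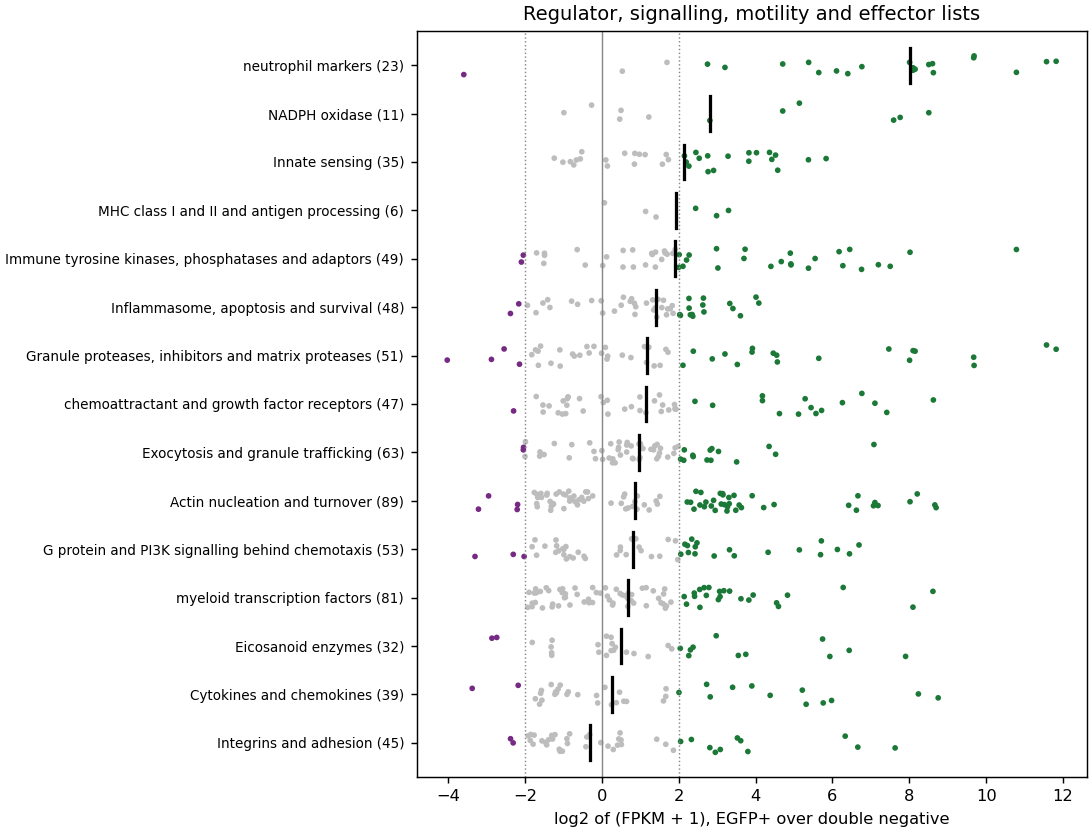
Log2 ratio of FPKM + 1, EGFP+ over double negative, for the members of 15 lists of identity, regulator, signalling, motility, effector and antigen presentation genes, with 1 point per gene, black bars at the median and the number measured in brackets. Green and purple points are past 4-fold (dotted lines); within most lists a long tail to the right accompanies a body near 0, and the medians of the lists of myeloid transcription factors, eicosanoid enzymes and cytokines turn below 0 under at least 1 scaling.

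In the NADPH oxidase list the phagocyte enzyme differed from its relatives. Of 11 measured members 6 rose and 0 fell past 4-fold, with a median of 2.81. In mCherry+ over double-negative cells 6 of the 11 also rose past 4-fold, with a median of 2.63. The following counts and values refer to EGFP+ unless mCherry+ is named. The membrane pair cybb and cyba had 524 and 379.8 FPKM in EGFP+ against 1.42 and 9.79 in double-negative cells. The cytosolic subunits ncf1 and ncf4 had 718 and 273 FPKM in EGFP+ against 0.975 and 0.417 in double-negative cells. In mCherry+ cells ncf1 and ncf4 stood at 313 and 138 FPKM, and cybb and cyba at 269 and 239.8 FPKM. The remaining genes past 4-fold were rac2 and rap1b, GTPases tied to the complex. The relatives used by other tissues, nox1, noxa1 and noxo1a, stayed under 4 FPKM in both libraries, and the proton channel hvcn1 had 69.97 FPKM in EGFP+ cells and 29.4 in double-negative cells, within 4-fold.

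NADPH, the fuel of that oxidase, is made largely by the pentose phosphate pathway. Of its 11 measured genes 3 rose and 0 fell past 4-fold: pgd, the enzyme of the second oxidative step, had 781 FPKM in EGFP+ cells and 24.1 in double-negative cells; transaldolase (taldo1) had 476 FPKM in EGFP+ cells and 31.6 in double-negative cells; and transketolase (tkt) had 1257 FPKM in EGFP+ cells and 144 in double-negative cells. In mCherry+ they stood at 184, 134 and 213 FPKM. The other 8 were within 4-fold, from rpia at 19.9 FPKM in EGFP+ and 9.15 in double-negative cells to rpe at 9.56 FPKM in EGFP+ and 25.6 in double-negative cells. The median of the pathway was 0.48, and turned to -0.07 with housekeeping scaling and -0.14 with equal sums. The NAD kinase gene nadka, chosen after its value was seen, had 731 FPKM in EGFP+ cells and 28.8 in double-negative cells.

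Antioxidant enzymes were also higher in part. The antioxidant list held 11 of 46 measured genes rising and 3 falling past 4-fold, with a median of 0.62 that turned to -0.09 with housekeeping scaling and -0.25 with equal sums. Glutathione reductase (gsr) stood out with 1826 FPKM in EGFP+, 462 in mCherry+ and 22.1 in double-negative cells. The glutathione transferase gsto2 had 249 FPKM in EGFP+ cells and 6.403 in double-negative cells, the glutathione peroxidase gpx1a 285 FPKM in EGFP+ cells and 21.04 in double-negative cells, thioredoxin (txn) 97.5 FPKM in EGFP+ cells and 13.3 in double-negative cells and the peroxiredoxin prdx1 245 FPKM in EGFP+ cells and 35.6 in double-negative cells. The family was divided, since gpx7 had 1.02 FPKM in EGFP+ cells and 18.3 in double-negative cells and gpx4a 7.86 FPKM in EGFP+ cells and 34.6 in double-negative cells, and the quinone reductase nqo1 had 6.48 FPKM in EGFP+ cells and 34.6 in double-negative cells.

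Glycogen metabolism differed by gene copy rather than as a whole. Of 21 measured genes 7 rose and 2 fell past 4-fold (median 0.78, and -0.13 with equal sums). Glycogen phosphorylase of the brain type, pygb, had 470.1 FPKM in EGFP+, 49.4 in mCherry+ and 10.8 in double-negative cells. The liver-type gene pygl was the reverse, at 5.97 FPKM in EGFP+ cells and 133 in double-negative cells. The synthases showed the same pattern, with gys1, the form of non-hepatic tissues, at 44.2 FPKM in EGFP+ cells and 5.85 in double-negative cells and the liver form gys2 at 0.596 FPKM in EGFP+ cells and 12.1 in double-negative cells. Glycogenin gyg1a, which primes glycogen, had 127 FPKM in EGFP+ cells and 15.4 in double-negative cells, and phosphoglucomutase pgm1 had 287 FPKM in EGFP+ cells and 60.7 in double-negative cells.

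Glycolysis showed a similar contrast between gene copies. Of the list, 5 of 40 measured members rose past 4-fold, 3 fell past it, and the median log2 ratio was 1.15. Both shares were little above the background, and the median was 0.37 with housekeeping scaling and 0.20 with equal sums. Pyruvate kinase of the muscle type, pkma, had 454 FPKM in EGFP+ cells and 51.9 in double-negative cells, and the liver and red cell form pklr had 5.98 FPKM in EGFP+ cells and 69.4 in double-negative cells. Hexokinase hk2 had 27.5 FPKM in EGFP+ cells and 1.08 in double-negative cells, and glucokinase gck was listed at 0 in EGFP+ and had 3.795 FPKM in double-negative cells. Other members past 4-fold were glucose phosphate isomerase gpia at 430.2 FPKM in EGFP+ cells and 50.9 in double-negative cells, the lactate exporter slc16a3 at 40.04 FPKM in EGFP+ cells and 6.29 in double-negative cells and gapdhs at 1064 FPKM in EGFP+ cells and 265 in double-negative cells. The gluconeogenic genes fbp1b (8.14 FPKM in EGFP+ cells and 113 in double-negative cells) and g6pca.2 (4.68 FPKM in EGFP+ cells and 41.7 in double-negative cells), in no list and chosen after their values were seen, lay with the liver forms.

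Mitochondrial energy genes hardly moved. In the respiratory chain, 0 of 31 measured genes of complex I and 0 of 14 of ATP synthase were past 4-fold, with medians of 0.32 and 0.29. The lists of the citrate cycle (0.24) and of complexes II to IV (0.27) had similar medians. All 4 medians turned below 0 under each of the 3 scalings, so no direction is read from them. The exceptions past 4-fold were cox6a2, a tissue-specific cytochrome oxidase subunit with 38.3 FPKM in EGFP+ and listed at 0 in double-negative cells, and the cytosolic enzymes me1 (malic enzyme) at 12.5 FPKM in EGFP+ cells and 0.803 in double-negative cells and idh1 at 47.6 FPKM in EGFP+ cells and 5.596 in double-negative cells, both of which make NADPH.

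**Figure D4:**
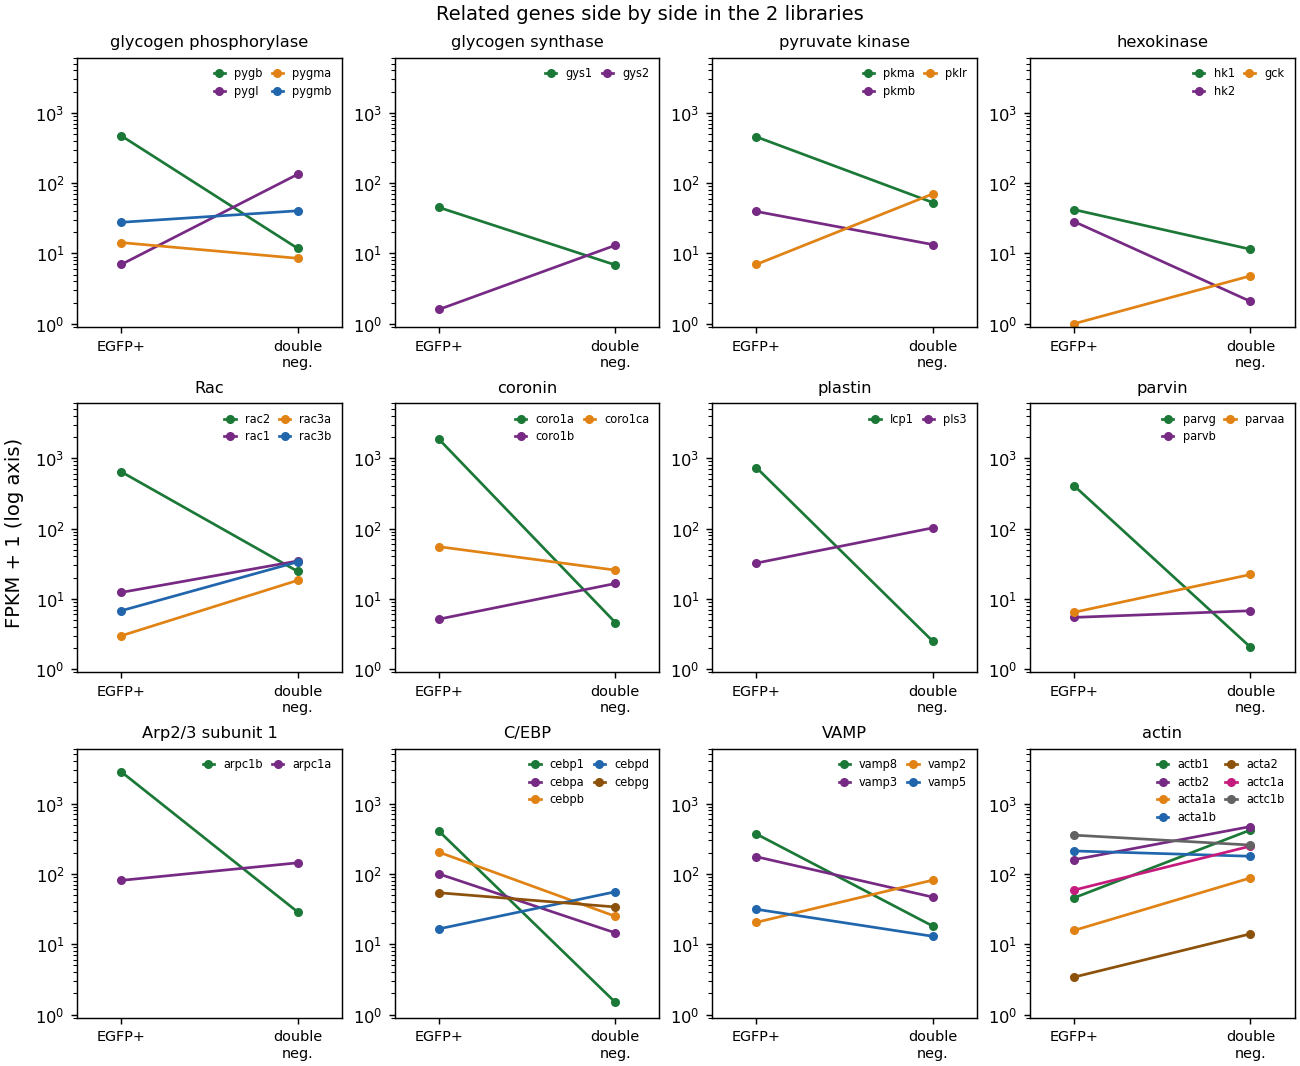
Level of related genes in the EGFP+ (left) and double-negative (right) library, as FPKM + 1 on a log axis, for 12 families chosen after their values were seen, with 1 line per gene and 1 library per population. In the glycogen phosphorylase, glycogen synthase, pyruvate kinase, hexokinase, Rac, coronin, plastin, parvin and Arp2/3 panels the lines cross, because 1 gene is higher in EGFP+ and another lower, although several of the lower genes are within 4-fold; in the actin panel no gene is at least 4-fold higher.

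Of the fatty acid and sterol list, 6 of 56 measured members rose past 4-fold, 2 fell past it, and the median log2 ratio was -0.18; the median was 0.62 with genes under an FPKM of 10 left out, and both shares are near the background. The elongase elovl5, which extends polyunsaturated fatty acids, had 135 FPKM in EGFP+, 14.6 in mCherry+ and 0.703 in double-negative cells. The ligase gene acsl4l had 97.5 FPKM in EGFP+ cells and 3.37 in double-negative cells and the lipid droplet protein plin2 88.4 FPKM in EGFP+ cells and 4.53 in double-negative cells. The elongase pair was split, with elovl1b at 81.2 FPKM in EGFP+ cells and 9.25 in double-negative cells and elovl1a at 3.81 FPKM in EGFP+ cells and 51.01 in double-negative cells. Further lipid enzymes in no list, chosen after their values were seen, were ch25hl2, related to cholesterol 25-hydroxylase, with 209 FPKM in EGFP+, 0.657 in mCherry+ and 0.483 in double-negative cells, and lpcat2, an acyltransferase of platelet-activating factor synthesis, with 158 FPKM in EGFP+ cells and 3.05 in double-negative cells.

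Among eicosanoid enzymes, those that make leukotriene B4 rose. The list as a whole had a median of 0.50, which turned to -0.21 with housekeeping scaling and -0.36 with equal sums, and 11 of 32 measured genes rose past 4-fold while 2 fell past it. The lipoxygenase alox5 had 154 FPKM in EGFP+ cells and 1.89 in double-negative cells, its activating protein alox5ap 275 FPKM in EGFP+ cells and 0.152 in double-negative cells, and leukotriene A4 hydrolase (lta4h), which makes leukotriene B4, 1149 FPKM in EGFP+ cells and 12.3 in double-negative cells. In mCherry+ these genes stood at 31.7, 22.1 and 122 FPKM. The gene cyp4f3, whose human counterpart inactivates leukotriene B4, had 70.5 FPKM in EGFP+ cells and 0.169 in double-negative cells. On the prostaglandin branch the cyclooxygenase ptgs1 and the prostacyclin synthase ptgis rose as well, with 28.6 and 93.01 FPKM in EGFP+ against 2.76 and 17.1 in double-negative cells. The inducible forms ptgs2b (16.7 FPKM in EGFP+ and 10.4 in double-negative cells) and ptgs2a (18.4 FPKM in EGFP+ and 47.3 in double-negative cells) and the prostaglandin E synthase ptges (4.21 FPKM in EGFP+ and 17.3 in double-negative cells) were within 4-fold.

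Polyamine enzymes, a set chosen after the values were seen, included 2 of the most abundant higher genes that were in no list. Of 10 measured genes 5 rose and 0 fell past 4-fold. Ornithine decarboxylase (odc1), the entry step, had 1543 FPKM in EGFP+, 316 in mCherry+ and 45.7 in double-negative cells. Spermine synthase (sms) had 1146, 14.1 and 15.1 FPKM in that order, so that mCherry+ was level with double-negative cells. The other genes past 4-fold were the acetyltransferase sat1a (452 FPKM in EGFP+ cells and 50.1 in double-negative cells), the decarboxylase amd1 (289.9 FPKM in EGFP+ cells and 53.6 in double-negative cells) and the spermine oxidase smox (76.6 FPKM in EGFP+ cells and 12.9 in double-negative cells). Spermidine synthase (srm) was at 11.4 FPKM in EGFP+ cells and 23.8 in double-negative cells, within 4-fold.

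In the list of exocytosis and granule trafficking, 14 of 63 measured members rose past 4-fold, 2 fell past it, and the median log2 ratio was 0.98. That median was 0.25 with housekeeping scaling and 0.08 with equal sums. For mCherry+ over double-negative cells 10 of the 63 rose past 4-fold, with a median of 1.10. The list as a whole was thus not particular to EGFP+. The syntaxin stx11a had 182 FPKM in EGFP+ cells and 0.35 in double-negative cells, the vesicle SNARE vamp8 368 FPKM in EGFP+ cells and 17.1 in double-negative cells, the small GTPase rab27a 225 FPKM in EGFP+ cells and 26.5 in double-negative cells and the SNARE partner stxbp2 89.03 FPKM in EGFP+ cells and 11.4 in double-negative cells. In mCherry+ vamp8 and rab27a stood at 25.2 and 42.4 FPKM, and rab3db, at 26.1 FPKM in EGFP+, stood at 0.344 in mCherry+ and 1.38 in double-negative cells. By contrast stx11a and stxbp2 had 131 and 53.6 FPKM in mCherry+, nearer to their EGFP+ values. Of relatives known from synapses, rab3ab and stxbp1a fell past 4-fold: rab3ab had 4.35 FPKM in EGFP+ cells and 21.01 in double-negative cells, stxbp1a 8.42 FPKM in EGFP+ cells and 37.6 in double-negative cells. Just within 4-fold, vamp2 had 19.5 FPKM in EGFP+ cells and 80.8 in double-negative cells and syt1a 4.76 FPKM in EGFP+ cells and 21.8 in double-negative cells.

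The lysosome and proton pump list had 7 of 53 measured genes rising and 1 falling past 4-fold (median 0.92, and -0.01 with equal sums). In mCherry+ over double-negative cells 39 of the 53 rose past 4-fold, with a median of 2.89. Acid ceramidase asah1a had 517 FPKM in EGFP+, 85.6 in mCherry+ and 8.61 in double-negative cells, while its paralog asah1b had 81.2, 292 and 8.42. The tetraspanin cd63, found in granule and lysosome membranes, had 2339 FPKM in EGFP+ cells and 167 in double-negative cells. The protease ctsl1a, abundant in mCherry+ (1417 FPKM), had 56.4 FPKM in EGFP+ cells and 180.1 in double-negative cells, within 4-fold. Of the proton pump, atp6v1b2 was the member at least 4-fold lower, at 2.81 FPKM in EGFP+ cells and 17.1 in double-negative cells.

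Endoplasmic reticulum genes for entry, folding and glycosylation had a median of 0.88, with 61 of 64 above 0 and 6 at least 4-fold higher; the median was 0.48 after the median-ratio shift and -0.07 with equal sums. The share past 4-fold was thus near the background of 8.69%. The translocon-associated gene ssr3 had 428 FPKM in EGFP+ cells and 53.8 in double-negative cells and the degradation factor derl3 46.4 FPKM in EGFP+ cells and 6.94 in double-negative cells. The oligosaccharyltransferase subunit tusc3 was at 28.03 FPKM in EGFP+ cells and 72.1 in double-negative cells, within 4-fold.

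Cytokine genes were split between a few with large ratios and many with small ones. Of 39 measured members 12 rose and 2 fell past 4-fold; the median of 0.25 turned to -0.13, -0.50 and -0.66 under the median-ratio, housekeeping and equal-sum scalings. Interleukin-1 beta (il1b) had 787 FPKM in EGFP+, 289.7 in mCherry+ and 1.61 in double-negative cells. The interleukin-4 gene il4 had 430.2 FPKM in EGFP+ and 1.51 in mCherry+ and was listed at 0 in double-negative cells, and the anti-inflammatory il10 had 136, 2.87 and 1.17. The tumour necrosis factor gene tnfb had 184 FPKM in EGFP+ and 194 in mCherry+ against 3.63 in double-negative cells, and tnfa had 9.58 in EGFP+ and 70.4 in mCherry+ and was listed at 0 in double-negative cells. The chemokine ccl38a.5 (listed as si:dkeyp-59a8.2) had 53.2 FPKM in EGFP+ and 195 in mCherry+ and was listed at 0 in double-negative cells. The stromal chemokines cxcl12a (6.55 FPKM in EGFP+ and 24.0 in double-negative cells) and cxcl12b (11.5 FPKM in EGFP+ and 36.6 in double-negative cells) were within 4-fold, and tgfb2 had 2.21 FPKM in EGFP+ cells and 13.5 in double-negative cells.

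Innate sensing had a high median: 18 of 35 measured members rose past 4-fold, 0 fell past it, and the median log2 ratio was 2.15. That median was 1.44 with housekeeping scaling, 1.28 with equal sums and 1.13 without the filter on low values. In mCherry+ over double-negative cells 18 of the 35 also rose past 4-fold, with a median of 2.03. The list as a whole was thus not particular to EGFP+. The flagellin receptor tlr5b had 256 FPKM in EGFP+ cells and 3.51 in double-negative cells, the adaptor card9 52.7 FPKM in EGFP+ cells and 0.293 in double-negative cells and the kinase irak4 74.5 FPKM in EGFP+ cells and 3.64 in double-negative cells. The inhibitors of NF-kB, which that pathway itself induces, had higher FPKM than these. The genes nfkbiab, nfkbiaa and nfkbie had 2264, 955 and 318 FPKM in EGFP+ against 105, 45.4 and 12.9 in double-negative cells, and 1365, 1215 and 433 in mCherry+. No member was at least 4-fold lower, and the lowest, the scavenger receptor colec12, was at 5.24 FPKM in EGFP+ cells and 13.7 in double-negative cells.

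Some survival genes and some cell death genes rose past 4-fold, while other genes that promote death were lower. Of the list, 15 of 48 measured members rose past 4-fold, 2 fell past it, and the median log2 ratio was 1.41. That median was 0.65 with housekeeping scaling and 0.49 with equal sums. For mCherry+ over double-negative cells 14 of the 48 rose past 4-fold, with a median of 1.20. The list as a whole was thus not particular to EGFP+. The inhibitor of apoptosis birc2 had 581 FPKM in EGFP+ cells and 33.3 in double-negative cells and the survival kinase pim1 374 FPKM in EGFP+ cells and 34.2 in double-negative cells. Among genes that promote death, bida (Bid) had 203 FPKM in EGFP+ cells and 11.6 in double-negative cells and the inflammasome caspase caspa 77.6 FPKM in EGFP+ cells and 5.45 in double-negative cells. The executioner casp3b had 1.31 FPKM in EGFP+ cells and 9.32 in double-negative cells, and diabloa, which antagonizes inhibitors of apoptosis, 0.99 FPKM in EGFP+ cells and 9.33 in double-negative cells. Most of the list of MHC class I and II and antigen processing was not detected. Of its 17 genes 9 were listed at 0 in EGFP+ and 8 in double-negative cells, and 6 were measured. Of these 6, mhc1zba (212 FPKM in EGFP+ cells and 20.6 in double-negative cells), tapbp (22.2 FPKM in EGFP+ cells and 1.93 in double-negative cells) and b2ml (128 FPKM in EGFP+ cells and 22.7 in double-negative cells) were at least 4-fold higher. In mCherry+ over double-negative cells 3 of the 6 also rose past 4-fold. The class II chaperone cd74b had 1.66 FPKM in EGFP+, 37.3 in mCherry+ and 1.53 in double-negative cells.

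General machinery stayed within 4-fold almost throughout. Of 81 measured cytosolic ribosomal protein genes, 50 mitochondrial ribosomal protein genes, 44 proteasome genes and 70 splicing genes, 0 were past 4-fold in either direction. The most abundant genes of both libraries outside small RNAs included rps2 (6414 FPKM in EGFP+ and 3587 in double-negative cells), rpl36 (5111 FPKM in EGFP+ and 2449 in double-negative cells) and rplp1 (4837 FPKM in EGFP+ and 2287 in double-negative cells). The cytosolic ribosomal proteins had a median of 0.84, with 78 of 81 above 0, 0.44 after the median-ratio shift and -0.13 with equal sums. The mitochondrial ribosomal proteins had a median of -0.45. Every scaling tried lowers the EGFP+ values, so it could only move this median further below 0. The proteasome (0.20) and splicing (0.29) medians turned below 0 under all 3 scalings. Translation factors had a median of 0.68 (-0.01 with housekeeping scaling and -0.19 with equal sums), chaperones 0.59 (-0.12 and -0.30), and chromatin modifiers 0.18 (below 0 under all 3 scalings), with 1, 4 and 1 genes at least 4-fold higher. The chaperones past 4-fold included hspa13 (49.6 FPKM in EGFP+ and 5.05 in double-negative cells) and stip1 (1552 FPKM in EGFP+ and 286 in double-negative cells).

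Genes of DNA replication and the cell cycle gave no common direction, with a median of 0.04 that turned below 0 under all 3 scalings. Of 71 measured genes 1 rose and 0 fell past 4-fold. The exception was the G1 kinase cdk4, with 87.4 FPKM in EGFP+, 13.3 in mCherry+ and 10.3 in double-negative cells, while its relative cdk6 was at 1.15 FPKM in EGFP+ and 4.37 in double-negative cells. The next members were the helicase subunit mcm6 (34.4 FPKM in EGFP+ and 8.53 in double-negative cells) and the inhibitor cdkn1ba (40.6 FPKM in EGFP+ and 10.4 in double-negative cells), both within 4-fold.

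Genes known to respond to tissue dissociation and stress were measured as a sign of handling. Their median was 0.28 in EGFP+ over double-negative cells and turned below 0 under all 3 scalings, with 4 of 41 rising and 0 falling past 4-fold. That share is near the background as well. The orphan receptor nr4a1 had 436 FPKM in EGFP+ cells and 34.5 in double-negative cells and the phosphatase dusp1 446 FPKM in EGFP+ cells and 109 in double-negative cells, whereas junbb (148 FPKM in EGFP+ and 383 in double-negative cells) and egr2a (11.9 FPKM in EGFP+ and 44.2 in double-negative cells) lay within 4-fold on the lower side. Cytokine and NF-kB genes are also known to be induced by handling, and its part in those values was not tested.

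Some markers of other blood cells were also higher in EGFP+ than in double-negative cells. Of the macrophage list, 6 of 19 measured members rose and 0 fell past 4-fold (median 1.51), and the list summed to 1144 FPKM in EGFP+, 12485 in mCherry+ and 149 in double-negative cells. The gene of the other reporter, mpeg1, had 9.92 FPKM in EGFP+, 1396 in mCherry+ and 2.84 in double-negative cells. The macrophage genes csf1ra (1.01, 263 and 0.817 FPKM in that order) and c1qc (1.03, 146 and 0.723) were near the floor in EGFP+ and passed the filter through EGFP+ alone. The member that held most of the EGFP+ sum was ctssb.1 (cathepsin S), at 783 FPKM in EGFP+, 1094 in mCherry+ and 3.78 in double-negative cells, followed by irg1, the itaconate-producing enzyme, at 125, 3502 and 5.57. The chemokine receptor cxcr3.2 had 93.6, 323 and 0.988.

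Mast cell and eosinophil markers were mixed. The carboxypeptidase cpa5, used as a mast cell marker in zebrafish and also in the neutrophil list, had 1557 FPKM in EGFP+, 5.19 in mCherry+ and 17.4 in double-negative cells. With il4 and the tryptophan hydroxylase tph1b (45.1 FPKM in EGFP+ cells and 2.01 in double-negative cells) it made 3 of 6 measured members at least 4-fold higher. The mast cell regulators gata2a and kita were at 0.922 and 1.18 FPKM in EGFP+ against 4.01 and 5.303 in double-negative cells. The defining marker cpa3 was not analysed here. How many EGFP+ cells were of another granulocyte type was not tested.

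Of 8 measured thrombocyte markers 2 rose and 0 fell past 4-fold, 4 had a ratio below 0, and the median was -0.21. The coagulation factor f5 had 149.9 FPKM in EGFP+, 3.18 in mCherry+ and 11.3 in double-negative cells, and selp had 4.06 FPKM in EGFP+ cells and 0.221 in double-negative cells. Lower in EGFP+, within 4-fold, were itgb3b (0.776 FPKM in EGFP+ and 5.69 in double-negative cells), apln (9.24 and 28.7) and fn1b (21.3 and 45.4). The defining gene itga2b was listed at 0 in both reporter libraries. Of 6 measured lymphoid markers ccr9a, ikzf1 and runx3 were at least 4-fold higher, and each of them is also in the list of myeloid factors or of chemoattractant receptors; rag1 was at 0 in both reporter libraries, and lck was at 0.359 FPKM in EGFP+ and 0.0462 in double-negative cells. Of 18 endothelial genes, the ETS factors fli1b, fli1a (64.97 FPKM in EGFP+ cells and 6.81 in double-negative cells) and erg (8.44 FPKM in EGFP+ cells and 0.433 in double-negative cells) were the 3 at least 4-fold higher, whereas the junction genes cdh5 (3.83 FPKM in EGFP+ and 8.36 in double-negative cells) and cldn5b (4.06 FPKM in EGFP+ and 11.3 in double-negative cells) were within 4-fold. The list had a median of -0.38, and 1.16 with genes under an FPKM of 10 left out.

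Of 25 measured erythroid genes 2 rose and 8 fell past 4-fold, with a median of -1.21. The embryonic globins hbae3 and hbae1 had 96.3 and 102 FPKM in EGFP+ against 2201 and 1685 in double-negative cells; their sequences are near-identical, so the split between them is uncertain. The globins ba1 (49.4 FPKM in EGFP+ and 41.1 in double-negative cells) and hbaa1 (102 FPKM in EGFP+ and 88.6 in double-negative cells) were within 4-fold. The mitochondrial iron importer slc25a37 (48.1 FPKM in EGFP+ cells and 5.34 in double-negative cells) and ferrochelatase fech (23.7 FPKM in EGFP+ cells and 3.89 in double-negative cells) were higher in EGFP+, and the red cell enzyme of haem synthesis, alas2, was lower (2.803 FPKM in EGFP+ cells and 23.1 in double-negative cells). The housekeeping form alas1, in no list and chosen after its value was seen, had 233 FPKM in EGFP+ cells and 27.4 in double-negative cells.

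Genes of solid tissues were mostly lower in EGFP+. The lowest list was liver, with 33 of 42 falling and 1 rising past 4-fold (median -2.82); its members summed to 419 FPKM in EGFP+, 208 in mCherry+ and 3384 in double-negative cells. Complement factor cfb had 1.75 FPKM in EGFP+ cells and 72.8 in double-negative cells, the fibrinogen chains fgb and fgg had 2.05 and 4.37 FPKM in EGFP+ against 55.6 and 88.5 in double-negative cells, and vitronectin vtnb had 0.473 FPKM in EGFP+ cells and 29.01 in double-negative cells. The 1 liver-list gene that rose was complement factor H, cfh, with 53.8 FPKM in EGFP+, 1.46 in mCherry+ and 8.27 in double-negative cells. Pancreas and gut genes had a median of -2.24 with 12 of 20 at least 4-fold lower; insulin (ins) was listed at 0 in EGFP+ and had 14.2 FPKM in mCherry+ and 10.03 in double-negative cells.

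Neuronal genes were lower, with 12 of 32 at least 4-fold lower, 0 above a ratio of 0 and a median of -1.96; the axon gene dpysl3 had 7.92 FPKM in EGFP+ cells and 52.2 in double-negative cells. Glial and neural progenitor genes had a median of -1.45, with s100b at 1.37 FPKM in EGFP+ cells and 19.6 in double-negative cells. The medians were -1.78 for matrix and fibroblast genes (6 of 26 at least 4-fold lower), -1.70 for cartilage and notochord (4 of 21), -1.71 for collagens (4 of 21) and -1.47 for epidermis and keratins (2 of 27). Examples are the cartilage gene ucmab (5.78 FPKM in EGFP+ and 45.4 in double-negative cells), the proteoglycan dcn (17.7 FPKM in EGFP+ and 86.3 in double-negative cells) and the keratin krt18 (10.5 FPKM in EGFP+ and 63.9 in double-negative cells). Ionocyte, hair cell and mucous cell genes had a median of -1.93 with 4 of 11 at least 4-fold lower, pigment cell genes -1.05 with 3 of 20, and kidney genes -0.54 with 1 of 11. The counts for glia (1 of 19), epidermis and kidney are near the background of 5.48%. Photoreceptor genes had a median of -0.66 with 0 of 24 past 4-fold.

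Lens genes were higher in EGFP+. All 32 measured lens genes had a ratio above 0 (29 after the median-ratio shift) and 16 were at least 4-fold higher (median 2.04). The table holds 58 lens genes, and some, such as crygm2d2 (5.07 FPKM in EGFP+ and 0.661 in double-negative cells), passed the filter through EGFP+ alone. The filter thus favours ratios above 0, and without it the median was 0.66. The 58 genes summed to 983 FPKM in EGFP+, 36.6 in mCherry+ and 151 in double-negative cells. The aquaporin mipa had 89.2, 5.95 and 12.01 FPKM in that order and the crystallin cryba2b had 65.6, 1.17 and 7.08. Crystallins of the gamma M group are near-identical to one another, so their single values are uncertain. Skeletal muscle genes had a median of 1.09, with 2 of 35 rising and 2 falling past 4-fold, shares near the background in both directions; the median was 0.31 with housekeeping scaling and 0.13 with equal sums. The list summed to 15017 FPKM in EGFP+, 10691 in mCherry+ and 5768 in double-negative cells. Within that list the structural genes mylpfb (379 FPKM in EGFP+ and 112 in double-negative cells) and pvalb2 (2512 FPKM in EGFP+ and 737 in double-negative cells) were above, within 4-fold, and the regulator myog (1.003 FPKM in EGFP+ cells and 13.97 in double-negative cells) and the actin acta1a (14.7 FPKM in EGFP+ cells and 86.7 in double-negative cells) below the double-negative level; the myosins myhz1.1 and myhz1.2 are near-identical copies. Heart muscle genes had a median of 0.62 (-0.02 with equal sums), with myl7 at 38.4 FPKM in EGFP+ cells and 4.83 in double-negative cells and vmhc at 1.25 FPKM in EGFP+ cells and 8.74 in double-negative cells. The part of muscle or lens RNA in the other results was not tested.

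**Figure D5:**
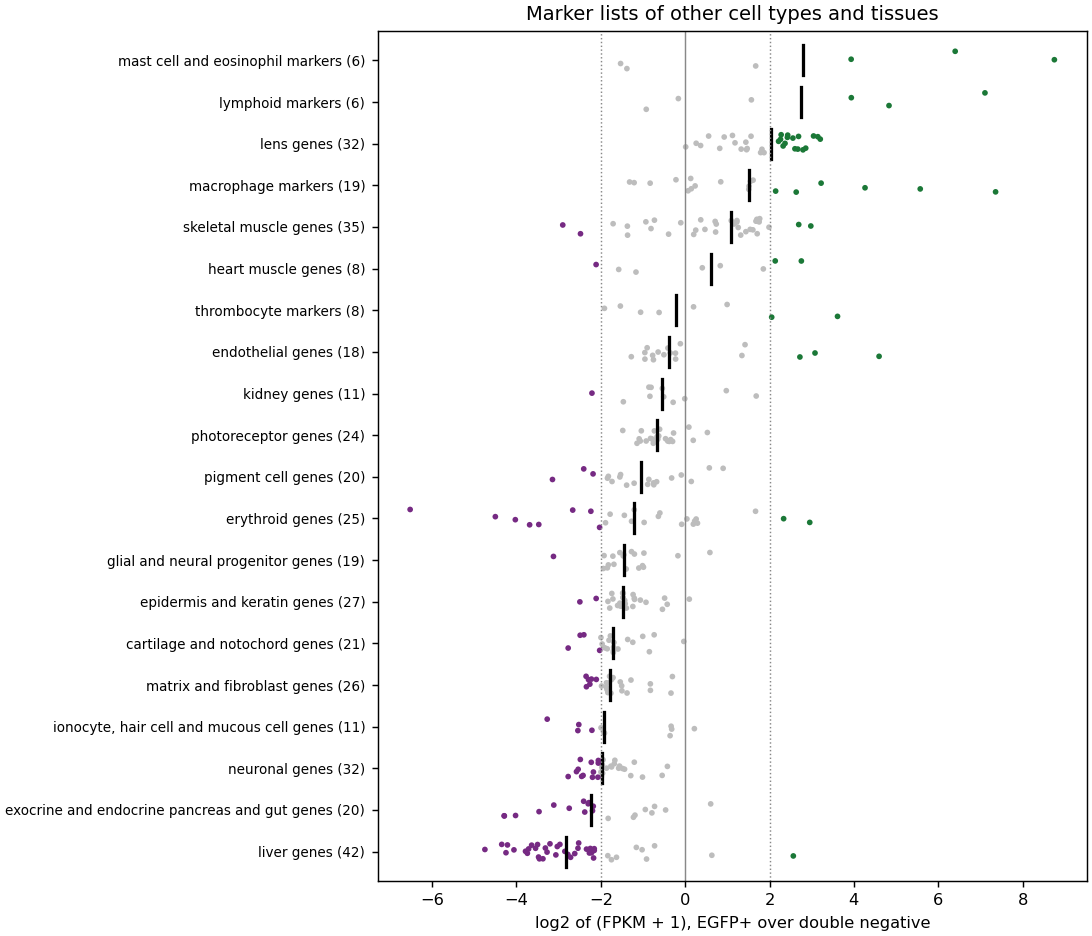
Log2 ratio of FPKM + 1, EGFP+ over double negative, for the members of 20 marker lists of other blood cells and tissues, with 1 point per gene, black bars at the median and the number measured in brackets. Most solid tissue lists lie left of 0, with liver lowest at a median of -2.82, whereas lens, skeletal muscle and heart muscle lie to its right; the heart muscle median turns to -0.02 with equal FPKM sums.

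Hox genes had a median of -1.53, with 7 of 46 falling and 0 rising past 4-fold; hoxc4a had 0.874 FPKM in EGFP+ cells and 12.7 in double-negative cells and hoxb6b 2.63 FPKM in EGFP+ cells and 17.1 in double-negative cells. Wnt, Notch and Hedgehog components had a median of -1.31, with 9 of 76 at least 4-fold lower. The Notch targets her15.1 and her12 had 0.49 and 1.42 FPKM in EGFP+ against 16.99 and 21.4 in double-negative cells. The receptor notch2 was the 1 member at least 4-fold higher, at 69.9 FPKM in EGFP+ cells and 16.7 in double-negative cells, with 86.5 in mCherry+. BMP, TGF-beta and FGF components had a median of -0.74 with 2 of 53 rising and 2 falling past 4-fold, both shares under the background. In that list the activin subunit inhbaa was the highest of those seen in both libraries, at 35.4 FPKM in EGFP+ cells and 2.61 in double-negative cells, with 4.75 in mCherry+. In the list of ephrins, semaphorins, netrins and Slits (median -1.15), 2 of 56 rose and 1 fell past 4-fold, again under the background. The members that rose were plxnd1 and sema4e. The gene plxnd1 had 26.3 FPKM in EGFP+, 59.6 in mCherry+ and 0.868 in double-negative cells. For sema4e the values were 72.9 FPKM in EGFP+, 2.09 in mCherry+ and 8.49 in double-negative cells.

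Among the genes with the lowest ratios, dap1b, listed at 0 in EGFP+ and in mCherry+ cells, had 270.0 FPKM in double-negative cells. The hepcidin gene hamp2, a liver regulator of iron, stood under 0.02 FPKM in EGFP+ and in mCherry+ cells and at 30.4 in double-negative cells. The ESCRT gene vps4b, which acts in membrane remodelling in all cells, had 0.0237 FPKM in EGFP+, 63.8 in mCherry+ and 29.5 in double-negative cells. Values this near to 0 for a gene of general function may be failed estimates, which was not tested. The remaining genes with the lowest ratios were mainly of liver, gut and endocrine pancreas, such as fabp1b.1 (2.98 FPKM in EGFP+ and 76.8 in double-negative cells), urah (0.888 FPKM in EGFP+ and 30.8 in double-negative cells), uox (4.32 FPKM in EGFP+ and 70.1 in double-negative cells) and gcga (0.752 FPKM in EGFP+ and 27.4 in double-negative cells). Of the 1048 higher genes 327 were in at least 1 list other than the housekeeping list, and of the 661 lower genes 147 were. Among the higher genes in no list that carry a gene name, sepw1, odc1 and crip1 had the highest EGFP+ levels; sepw1, a selenoprotein gene, had 1649 FPKM in EGFP+ cells and 103 in double-negative cells, and crip1, which encodes a LIM-domain protein, 1462 FPKM in EGFP+ cells and 49.9 in double-negative cells. Several of the most abundant genes appear in the table under identifiers and carry names in RefSeq; these were also chosen after their values were seen. The gene zgc:158446, named cfbl for its likeness to complement factor B, had 1908 FPKM in EGFP+, 55.5 in mCherry+ and 0.397 in double-negative cells, opposite to the liver gene cfb described above. The sulphotransferase sult5a1 (zgc:153723) had 833, 45.9 and 0.284 FPKM in that order. The immune checkpoint gene vsir (zgc:153073) had 997, 436 and 5.26, and the lysosomal membrane gene laptm5 (LOC100151049) had 893 and 587 and was listed at 0 in double-negative cells. The first 2 of these were far higher in EGFP+ than in mCherry+ cells, whereas vsir and laptm5 were within 4-fold between them.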

How the data were processed

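Gene-level FPKM was deposited as 1 table with a column for each of the 3 sorted libraries. Per the labels' protocols, cells were sorted into buffer, RNA was extracted with carrier and depleted of ribosomal RNA, and libraries were made with a kit for low input. Per the submitters' processing notes, the authors used cutadapt, TopHat2 2.0.11 and Cufflinks 2.2.1 with build danRer7 to make the deposited FPKM values; which annotation, settings and strand rule they used is not stated in the labels, so overlapping genes are uncertain. All columns of the table were used.

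Ratios were computed as log2 of FPKM + 1 (EGFP+ over double negative) in Python 3.11.15 with pandas 2.3.3, NumPy 2.4.6 and matplotlib 3.10.9, after a minimum of 1 FPKM in either library. A difference of 4-fold was called higher or lower. No count of reads could be recovered from the FPKM values, so depth is unknown. The 62 lists hold 2635 entries for 2477 genes, of which 2275 were measured. Names were matched for 13895 of 14428 rows to RefSeq (assembly GRCz12tu, names only), and 18 matches by older names were dropped as uncertain. The members and lists were chosen with earlier results of these data known.

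Genes were named by rule: in each direction the 25 largest ratios among named genes at 10 FPKM or more, for each list up to 5 highest and 5 lowest members at 5 FPKM or more (every measured member of a list of 12 or fewer), and the 10 highest genes of each library. The text gives a part of these; some genes, left out of the lists, and 1 list are not reported here. Genes described as chosen after their values were seen, gene copies set beside a named gene and other examples fall outside the rule. Other pseudocounts, filters, scalings and thresholds were tried; the scaling by FPKM sums without small RNA was chosen after seeing the data. The calculation was tested on simulated data. A planned search of promoter motifs was not run, because no promoter sequences were used here.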

Additional observations from a re-analysis of the deposited data

How the results depend on the processing

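With 1 library in each group, no replicate could be left out and no value has an error. No paired analysis was possible because each group holds 1 library. The number of genes at least 4-fold higher was 1048 and stayed within 1.5 times of that with a pseudocount of 0.1, without the filter, with a minimum of 10 FPKM and with median-ratio scaling. It was 683 with a pseudocount of 5, 575 with housekeeping scaling, 514 with equal FPKM sums, 518 with equal sums without small RNA, 2609 at 2-fold and 486 at 8-fold. The number at least 4-fold lower was 661, against 1617 with a pseudocount of 0.1, 136 with a pseudocount of 5, 424 with a minimum of 10 FPKM, 1024 with median-ratio scaling, 1524 with housekeeping scaling, 1766 with equal sums, 1755 with equal sums without small RNA, 3072 at 2-fold and 123 at 8-fold. The share of the EGFP+ FPKM sum in the higher genes was 61.5% at 2-fold and 25.1% to 35.5% under the other settings. The share of the double-negative sum in the lower genes was 13.3% with median-ratio scaling, 18.1% with housekeeping scaling, 19.4% with either equal-sum scaling, 21.9% at 2-fold and 3.55% at 8-fold. Of 62 lists, 40 had a median above 0, against 23 with housekeeping scaling and 18 with either equal-sum scaling. Of 496 list medians recomputed, 109 moved by more than 0.80 log2, the robust spread of housekeeping ratios. The median-ratio and housekeeping shifts were 0.40 and 0.79, so no median could move that far under either of those scalings. The medians that stayed within 0.80 under them are therefore no sign of stability. Between settings, 22 lists changed sign with scaling and 3 with a pseudocount or filter. The thresholds and scalings differ by construction in how many genes they call, and no other cause was tested. The planned search of promoter motifs was not run. Depth is unknown, so the precision of low values cannot be given.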
